A study of Mus musculus with 8 samples.

Results

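RNA from both nuclear-transfer lines was compared as a pool with RNA from wild-type (WT) mice, to describe what the regulatory T cell (Treg) fractions of 2 monoclonal lines had in common. The lines, T138 and T143, come from somatic cell nuclear transfer: the nucleus of a T cell gave rise to the animal, whose T cells then express that cell's receptor. The nuclear-transfer arm held 5 of the 8 libraries of the series, 2 of T138 and 3 of T143, and the other arm held 3 WT libraries. All 8 libraries, WT included, carry the strain label NOD-Foxp3GFP-Rag1-/-, that is the NOD background with a reporter at Foxp3 and a knockout of Rag1, and the sources used here do not say whether this applies to the WT mice. The animals were untreated, and messenger RNA was sequenced from cells sorted by flow cytometry as Foxp3+ CD4+. A gene belonged to the description when its 5 nuclear-transfer values all lay above, or all lay below, its 3 WT values. This held for 2324 of 15547 tested genes. The arm stands for 2 lines only, each from 1 donor nucleus, so p-values measure the spread among these libraries and not variation among lines.

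Treg cells restrain immune responses and depend on the transcription factor Foxp3, on interleukin-2 and on signals through the T cell receptor. Receptor signals raise calcium and release NFAT, they switch on immediate early genes such as the AP-1 and EGR factors, and they set the level of many surface proteins of the Treg programme. A normal Treg population carries very many receptors, whereas the T cells of a nuclear-transfer line share a receptor, which is why such lines serve to study how receptor specificity shapes these cells.

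Values are normalised read counts, that is the reads of a gene scaled so that every library sums to the same total. Recovered depth ran from 7.83 to 18.41 M reads in the nuclear-transfer libraries and from 14.64 to 22.64 M in WT, and 3 reads correspond to a value of 2.07 to 5.97. T143 libraries were female and T138 and WT libraries male by their sex-linked transcripts, so for T143 sex and line cannot be told apart. Labels conflict for 2 libraries: T143 replicate 1 has a T138 mouse, and WT replicate 1 a T143 mouse, in the source name field, while their other labels give the groups used here. Of 8 genes that define CD4 T cells, none was called different between the arms, with a median log2 change of -0.21. Foxp3 (chromosome X, 7579676 to 7595243, GRCm38), on which the cells were sorted, was at 41854 and 41161 (T138) and 3920, 6299 and 8694 (T143), with WT at 29773, 36362 and 35360. The T138 values lay above WT and the T143 values far below, so Foxp3 was not part of the shared change (pooled log2 change -1.38 ± 0.75, limma adjusted p = 0.344). In bulk samples, fewer cells of a type and less RNA per cell cannot be told apart.

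Genes called higher outnumbered genes called lower in the pooled limma test and changed by more, whereas genes with all 5 values above WT were fewer than those with all 5 below. A change is the mean log2(value + 1) of the 5 nuclear-transfer libraries minus that of the 3 WT libraries, and a gene was called at a Benjamini-Hochberg adjusted p under 0.05 in limma. By that rule 476 genes (3.06%) were higher and 283 (1.82%) lower. All 5 values exceeded all 3 WT values for 1033 genes (6.64%) and lay below them for 1291 (8.3%). Both conditions together held for 472 genes (3.04%) above and 283 (1.82%) below, and these 755 are called shared here. The other 4 called genes overlapped between the arms (Bcl11a, Cd244, Rassf4 and Svip, named after their values were seen). The shared higher genes had a median log2 change of 4.31, and 373 of 472 (79.0%) changed at least 4-fold. The shared lower genes had a median of -1.39, and 107 of 283 (37.8%) changed at least 4-fold. Of all called genes 62.7% were higher, which became 43.4% in limma-voom (151 higher, 197 lower). The share became 49.7% when both lines were given equal weight, in a fit of 3 group means with the spread within groups. With genes at 0 in every library of an arm set to the bound that 3 reads per library allow, the medians were 4.25 and -1.38. The counts depended on single libraries: without WT replicate 1, 2 or 3 the called genes numbered 216, 207 and 193 higher and 105, 82 and 74 lower, and without T143 replicate 2 they numbered 315 higher and 172 lower. Without T143 replicate 3, 179 were lower. Without the pair of libraries with conflicting labels, T143 replicate 1 and WT replicate 1, 89 genes were lower.

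**Figure D1:**
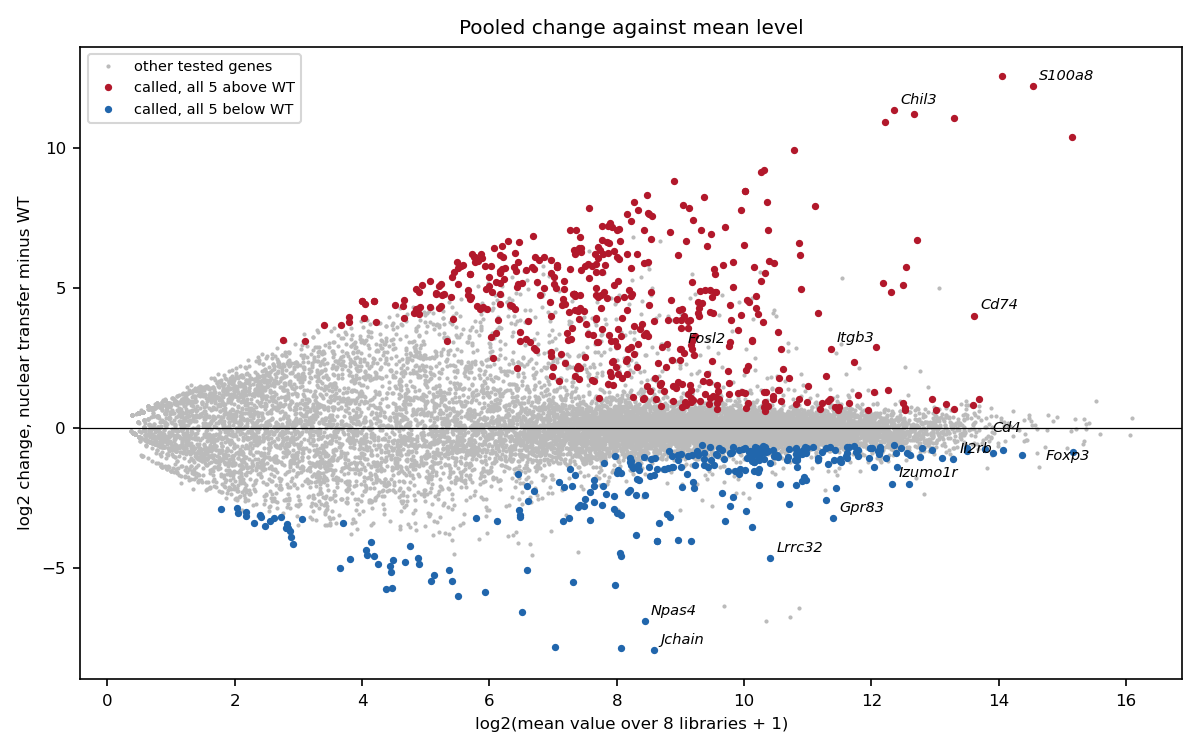
Pooled log2 change of each tested gene (y axis, mean of 5 nuclear-transfer libraries minus mean of 3 WT libraries) against the log2 of its mean value over 8 libraries plus 1 (x axis), with the 472 shared higher and 283 shared lower genes coloured. The shared higher genes reach 12.6, further from 0 than the shared lower genes, which reach -7.94.

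At the edge of the rule, Slc8b1 was just inside as higher, with its lowest nuclear-transfer value at 330.4 and its highest WT value at 326. Svip was just outside, at 22.86 against 23.43. Zer1 was just inside as lower, with its highest nuclear-transfer value at 2608 and its lowest WT value at 2800.

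Some genes of the Treg programme were lower in both lines. Of 24 Treg core genes, 9 fell with all 5 values below WT and none rose, against a background of 1.82%. The 9 were Lrrc32, Gpr83, Izumo1r, Tnfrsf9, Cd83, Il2rb, Penk, Ikzf4 and Lag3. The list's median log2 change was -1.67, beside -0.01 over all tested genes. The median was -0.18 in T138 and -2.31 in T143, whose changes share the WT libraries. In T138 some members had positive changes, such as Socs2 (1.18) and Tnfrsf18 (0.9). Leaving out a library changed the count of 9 to between 6 and 10, with 6 without WT replicate 2 or 3, and edgeR called 7. The list was used in earlier work on these data and is no independent evidence of the direction.

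Lrrc32 encodes GARP, the surface protein that holds latent TGF-beta on activated Treg cells (chromosome 7, 98489305 to 98501831). It was at 2812, 3586 and 3578 in WT, against 260.8 and 243.8 in T138 and 41.79, 52.18 and 279.7 in T143. Every nuclear-transfer library was far below every WT library, and T143 replicate 3 lay with T138 (log2 change -4.64 ± 0.65, limma adjusted p = 0.00393). Gpr83, a G protein-coupled receptor long used as a Treg marker (chromosome 9, 14859880 to 14870789), was at 422.2 and 249.8 (T138) and 1150, 955.7 and 904.7 (T143), with WT at 6906, 5281 and 5693. Here T138 was lowest, T143 intermediate and WT highest, with no overlap (-3.21 ± 0.45, limma adjusted p = 0.00401). Izumo1r, the neighbouring gene on chromosome 9 (14885814 to 14903951), encodes folate receptor 4, a surface marker of Treg cells. Its values were 10019, 7065 and 11907 in WT, against 2335 and 1924 in T138 and 3377, 1950 and 2628 in T143, so the lines overlapped each other and lay below WT (-1.98 ± 0.23, limma adjusted p = 0.00202).

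Tnfrsf9 encodes 4-1BB, a co-stimulatory receptor induced by receptor signals (chromosome 4, 150920155 to 150946104). It was at 726.4 and 618.9 (T138) and 736.3, 547.2 and 964.1 (T143), with WT at 3227, 2183 and 3102. The lines overlapped each other, with changes of -2.06 in T138 and -1.94 in T143 (pooled -1.99 ± 0.22, limma adjusted p = 0.00154). Cd83, a membrane protein of activated lymphocytes and dendritic cells, was at 2313, 1848 and 2706 in WT, against 455.7 and 388.6 in T138 and 153.2, 260.9 and 278.5 in T143 (-2.97 ± 0.33, limma adjusted p = 0.00154). The summed level of 14 dendritic cell and MHC class II genes was higher in every nuclear-transfer library, as given below. Which cells gave the Cd83 reads was not tested. Il2rb, the beta chain of the interleukin-2 receptor, was at 8091 and 6462 (T138) and 6219, 5714 and 8645 (T143), with WT at 16452, 13486 and 14966 (-1.1 ± 0.18, limma adjusted p = 0.00684). The alpha chain gene Il2ra was below WT in all 5 libraries too, at 12706, 13734 and 12116 in WT, against 8631 and 7099 in T138 and 909.5, 1414 and 1307 in T143. The lines stood far apart, and the pooled change of -2.34 ± 0.71 was not called (limma adjusted p = 0.104).

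The other Treg core genes that fell were less stable. Ikzf4 encodes Eos, a transcriptional partner of Foxp3 (chromosome 10, 128630839 to 128669671), and was at 1244 and 1088 (T138) and 314.4, 311.8 and 245.1 (T143), with WT at 2526, 3882 and 3729 (-2.72 ± 0.54, limma adjusted p = 0.0192). Penk, which encodes the precursor of enkephalin peptides, was at 704.6, 786 and 1530 in WT, against 36.42 and 163.4 in T138 and 139.3, 61.09 and 227.7 in T143 (-3.19 ± 0.57, limma adjusted p = 0.0117). Lag3, an inhibitory receptor that binds MHC class II, was at 196.8 and 46.57 (T138) and 73.63, 87.81 and 290.9 (T143), with WT at 681.2, 462.2 and 667.3 (-2.4 ± 0.55, limma adjusted p = 0.0331). Without any 1 WT library the adjusted p of Ikzf4 was 0.0593 to 0.101, that of Lag3 0.107 to 0.146 and that of Penk 0.0473 to 0.0778. Ctla4 (-1.78 ± 0.98, limma adjusted p = 0.348) and Ikzf2 (-1.42 ± 0.63, limma adjusted p = 0.245) were not called.

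**Figure D2:**
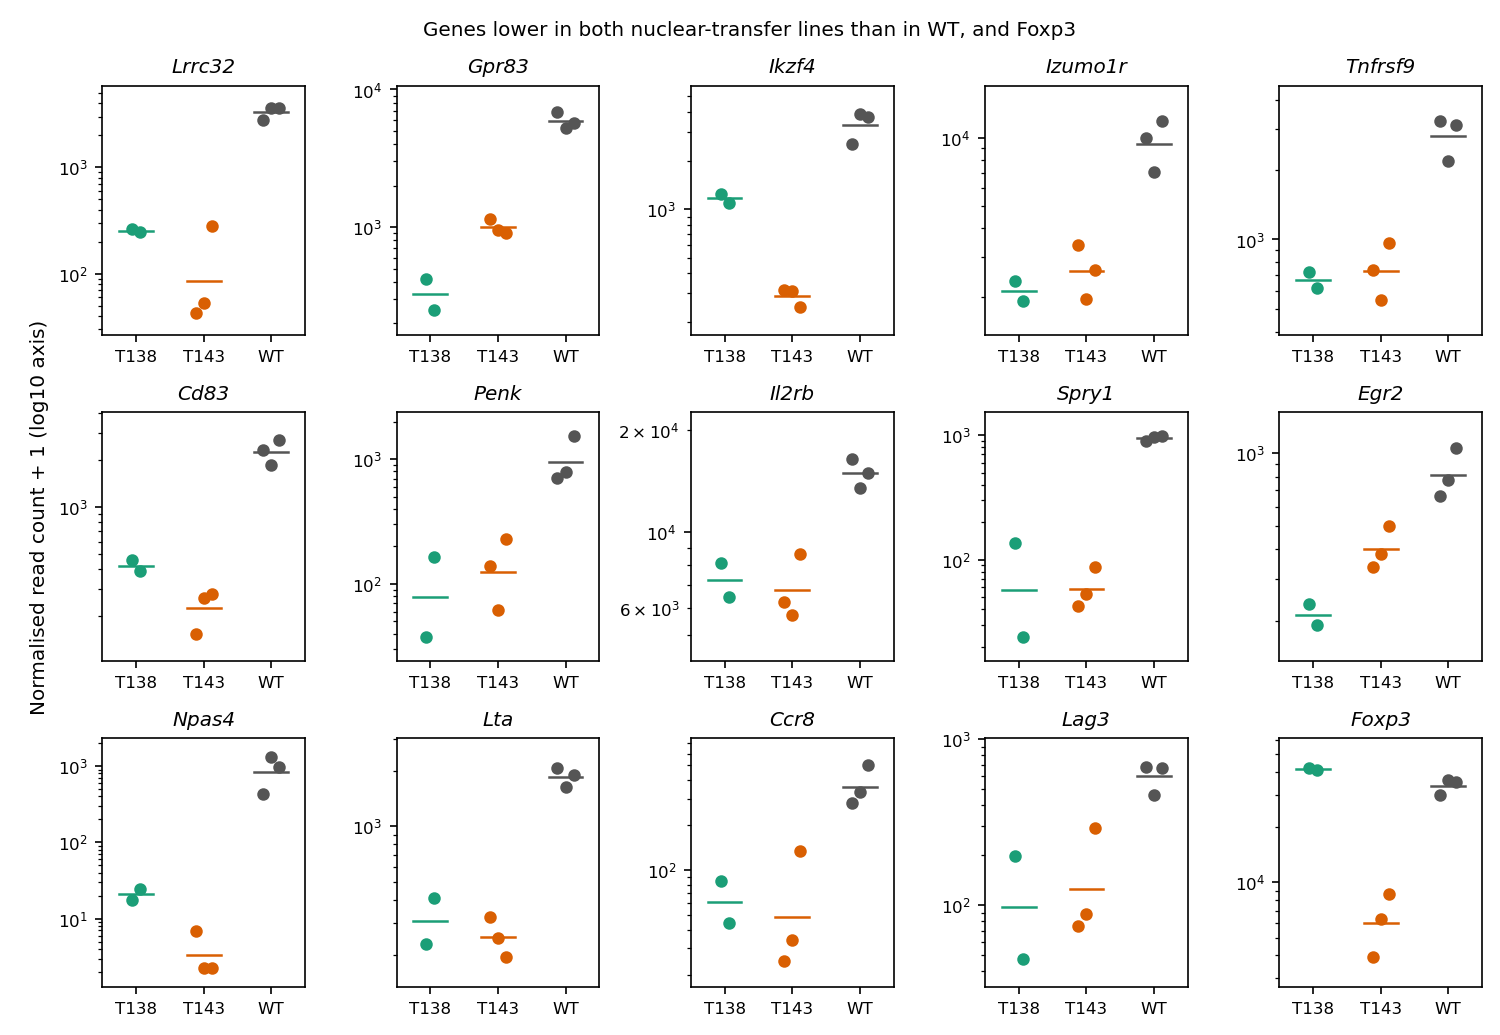
Normalised read count plus 1 (y axis, log10 scale) of 15 genes in each library of T138, T143 and WT, with a line at each group's mean on the log scale. Of the 15, 14 are shared lower genes whose WT points all lie above the points of both lines, and Foxp3 is shown for comparison, with T138 above WT.

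Some genes of a list named for the calcium and NFAT driven response to the T cell receptor were lower as well. Which signal drives each member was not tested. Of its 24 genes, 6 fell with all 5 values below WT (Tnfrsf9, Spry1, Ldlrad4, Cd200, Myc and Egr2) and none rose, against a background of 1.82%. All 5 values lay below WT for 11 of the 24, against 8.3% of tested genes, and the median log2 change was -0.77. With each line set against WT, 2 members were called higher and 10 lower in T138, and 1 higher and 15 lower in T143. Egr1 changed by 1.87 in T138 and 0.14 in T143, and Dusp5 by 2.8 and -0.45. The count was 3 without any 1 of the WT libraries. Spry1, an inhibitor of receptor tyrosine kinase and antigen receptor signalling, was at 888.5, 966 and 978.9 in WT, against 133.9 and 22.86 in T138 and 41.79, 52.18 and 86.64 in T143. Its changes were -4.06 in T138 and -4.02 in T143 (pooled -4.03 ± 0.51, limma adjusted p = 0.00264). Ldlrad4, a membrane protein that restrains TGF-beta signalling, changed by -1.46 ± 0.22.

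Egr2, a transcription factor induced through NFAT, was at 234.2 and 191.3 (T138) and 334.3, 380.5 and 496.3 (T143), with WT at 661.9, 776.4 and 1049. T138 was lowest and WT highest without overlap (-1.39 ± 0.32, limma adjusted p = 0.034). Myc, a driver of growth, was at 2643, 2538 and 3008 in WT, against 1008 and 874.6 in T138 and 1286, 1780 and 1498 in T143 (-1.13 ± 0.23, limma adjusted p = 0.021). Nr4a3, an orphan nuclear receptor that reports receptor signals, was at 14.76 and 30.48 (T138) and 461.7, 476 and 245.1 (T143), with WT at 834.1, 810.5 and 1180. All 5 values were below WT, the lines stood far apart, and the pooled change of -2.93 ± 1.09 was not called (limma adjusted p = 0.176). Without any 1 WT library the adjusted p was 0.0817 to 0.17 for Egr2, 0.081 to 0.109 for Myc and 0.0602 to 0.0918 for Cd200 (-1.56 ± 0.3 with all libraries).

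Components of receptor signalling itself changed by less. In the list of the T cell receptor complex and its proximal signalling, 4 of 19 tested genes fell (Fyn, Plcg1, Ubash3a and Zap70), none rose, against a background of 1.82%, and the median log2 change was -0.34. The kinases Fyn (-0.79 ± 0.14, limma adjusted p = 0.0123) and Zap70 (-0.71 ± 0.17, limma adjusted p = 0.0462), the phospholipase Plcg1 (-0.7 ± 0.16) and the phosphatase-like adaptor Ubash3a (-0.67 ± 0.15) were all changed by under 1 log2 unit. The count was 0 to 4 when a library was left out. Lax1, an adaptor that limits receptor signalling, was at 3235, 3296 and 3715 in WT, against 1550 and 1824 in T138 and 1753, 1354 and 1689 in T143 (-1.07 ± 0.15, limma adjusted p = 0.0039). Cd3e, a receptor subunit, was not called (-0.19 ± 0.29, limma adjusted p = 0.75), nor was Cd4 (-0.34 ± 0.16, limma adjusted p = 0.268).

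Among 22 co-stimulatory and inhibitory receptors 4 fell (Tnfrsf9, Cd27, Cd96 and Lag3) and none rose, against a background of 1.82%, with a median log2 change of -0.7. Cd27, a co-stimulatory receptor of the TNF receptor family, was at 5012 and 4912 (T138) and 5168, 4206 and 3777 (T143), with WT at 8960, 7630 and 8747 (-0.88 ± 0.16, limma adjusted p = 0.0115). Of 22 cytokine receptors and STAT5 feedback genes 3 fell (Il2rb, Il21r and Stat5a), against the same 1.82%, with a median of -0.31. Il21r, the interleukin-21 receptor, changed by -0.88 ± 0.14 (limma adjusted p = 0.00562), and Stat5a, a transcription factor of the interleukin-2 pathway, by -0.67 ± 0.14 (limma adjusted p = 0.0205). Leaving out a library gave 1 to 4 co-stimulatory and 2 to 4 cytokine receptor genes, and without both T143 replicate 1 and WT replicate 1 no cytokine receptor gene was called. In the NF-kB list 2 of 18 fell (background 1.82%, and 1 of 18 without WT replicate 2 or 3), Cd83 and the subunit gene Rel (-0.93 ± 0.18, limma adjusted p = 0.0189), with a median of -0.31.

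In the follicular T cell list 2 of 12 genes fell, Cd200 and P2rx7, against a background of 1.82% and with a median of -0.89. The count was 1 without any 1 of the WT libraries. P2rx7, an ATP-gated channel that makes T cells sensitive to extracellular ATP and NAD, was at 3969, 4597 and 4841 in WT, against 1974 and 2329 in T138 and 1769, 1675 and 2224 in T143 (-1.17 ± 0.16, limma adjusted p = 0.00364). Its lines overlapped each other, and no library of either reached WT.

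Among abundant shared lower genes outside the marker lists, Npas4 changed most. Npas4, an activity-dependent transcription factor best known from neurons, was at 16.73 and 23.71 (T138) and 5.97, 1.27 and 1.24 (T143), with WT at 433.2, 1304 and 985 (-6.9 ± 0.91, limma adjusted p = 0.00294). The T143 values lay at or below the level of 3 reads. After Npas4 and Lrrc32 came Ntn4, a secreted netrin (-4.04 ± 0.49), Capn3, a calcium-dependent protease (-4.03 ± 0.64), Spry1, Pla2g4f, a phospholipase (-4.01 ± 0.33), Rgs9 (-3.8 ± 0.94), Lrig1 (-3.53 ± 0.27), Arhgap20 (-3.39 ± 0.5) and Ryr2 (-3.3 ± 0.69). Lrig1, a transmembrane protein that restrains growth factor receptors, was at 2548, 2568 and 2677 in WT, against 239.2 and 122.8 in T138 and 274.6, 240.5 and 290.9 in T143. Its 3 WT values were close together, and every nuclear-transfer value was far below them (limma adjusted p = 0.000751). The calls of Rgs9 and Ryr2 were lost without any 1 WT library (adjusted p of 0.145 to 0.197 and 0.0892 to 0.116).

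The change was nearly the same in both lines for some of these genes. Of 65 shared lower genes that changed by at least 1 log2 unit in each line, those with the closest changes included Rasal1, a Ras GTPase-activating protein, at 821.8 and 711.2 (T138) and 800, 806.8 and 700.5 (T143), with WT at 1862, 1818 and 1598 (-1.19 ± 0.15, limma adjusted p = 0.00229). The set also held Plxnb1, a semaphorin receptor (-1.7 ± 0.24), Prickle1 (-1.43 ± 0.2), Kcnf1, a potassium channel subunit (-1.45 ± 0.15), Plekhg2 (-1.06 ± 0.14) and Ankrd12 (-1.1 ± 0.16). These genes, and Ldlrad4 and Lax1 with them, were called under every alternative run. Tnf, which encodes the cytokine TNF, was at 1146, 747.6 and 930.2 in WT, against 545.3 and 252.3 in T138 and 318.4, 399.6 and 433.2 in T143 (-1.3 ± 0.27, limma adjusted p = 0.022), with an adjusted p of 0.0547 to 0.113 without any 1 WT library. Its neighbour Lta, which encodes lymphotoxin alpha (chromosome 17, 35203165 to 35205578), was chosen after its values were seen. Lta was at 227.4 and 406.4 (T138) and 322.4, 245.6 and 194.3 (T143), with WT at 2064, 1641 and 1910 (-2.79 ± 0.25, limma adjusted p = 0.00119).

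The shared higher genes included many markers of other blood cells. Of the 472 shared higher genes 40 belonged to a marker list of another cell type, against 1 of the 283 shared lower genes (Jchain, of plasma cells). Shared higher genes made up 12 of 15 neutrophil genes, 7 of 14 monocyte and macrophage genes, 12 of 14 dendritic cell and MHC class II genes, 5 of 12 natural killer and CD8 T cell genes and 4 of 9 erythroid genes, against a background of 3.04%. The median log2 changes of these lists were 9.23 (9.66 with genes at 0 in WT at their bound), 3.36, 4.75, 2.52 and 3.14. Without WT replicate 1, 2 or 3 the counts were 3, 2 and 2 for monocytes, 7, 6 and 6 for dendritic cells and 1, 2 and 1 for erythroid cells, where edgeR called 0. The erythroid count was 2 without T143 replicate 3. No gene of the platelet, mast cell, thymocyte or stromal lists was called higher and non-overlapping in the pooled comparison. In T143 against WT, 4 of 7 platelet genes and 3 of 8 mast cell, basophil and eosinophil genes were called higher. The median changes of these lists were 3.18 and 3.4 in T143 and 0 in T138, where 0 members were called. The B cell and plasma cell list had a median of -1.23, and its defining members Ebf1, at 0 in all 8 libraries, and Pax5, at 0 in all but WT replicate 1 (8.95), did not separate the arms.

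Summed over a list and given as a percentage of a library's signal, neutrophil genes made up 0.0298 and 0.161% in T138, 0.617 to 3.78% in T143 and at most 0.00583% in WT. Monocyte and macrophage genes made up 0.106 to 0.328% in the nuclear-transfer libraries and 0.0294 to 0.0365% in WT. In T138 the single gene Ccr2 gave 11586 and 10248 of summed values of 21799 and 17859. In T143 the largest member was Lyz2 (7897, 17916 and 25398), and in WT it was Ctss (3934, 2818 and 3852). Dendritic cell and MHC class II genes made up 0.0613 to 0.693% and 0.0119 to 0.0196%, natural killer and CD8 T cell genes 0.0123 to 0.0233% and 0.00402 to 0.00711%, and erythroid genes 0.0076 to 0.0987% and 0.0015 to 0.00398%. The 8 CD4 T cell genes made up 0.369 to 0.633% and 0.519 to 0.667%. For each of the 5 other cell types the arms did not overlap. The same held for the stromal and epithelial sum, at 0.0923 to 0.144% in the nuclear-transfer libraries and 0.0632 to 0.0833% in WT. Its largest part was the single gene Vim, at 9793 to 17674 and 6280 to 9231, and no member of that list was called. Epcam was above WT (198.4, 132.1 and 237.9) in T138 (1057 and 779.8) but not in T143 (89.55, 123.4 and 148.5). Mmp8 and Retnlg of the neutrophil list, Fcgr1 of the monocyte list and Clec9a of the dendritic cell list were at 0 in every WT library, and no member of those lists was at 0 in every nuclear-transfer library. Without T138 replicate 1 and T143 replicate 3, the library of each line with the highest neutrophil sum, 214 genes were shared higher and 136 shared lower. These marker sums were higher in all 5 nuclear-transfer libraries, as every shared higher gene described below was by the rule that chose it. Among the 5 libraries the dendritic cell sum was highest in T138 (0.693 and 0.527%). The neutrophil and monocyte sums were highest in T143 replicate 3 (3.78 and 0.328%). The order of the genes was not compared with that of the sums. The part of these levels in the results was not tested.

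**Figure D3:**
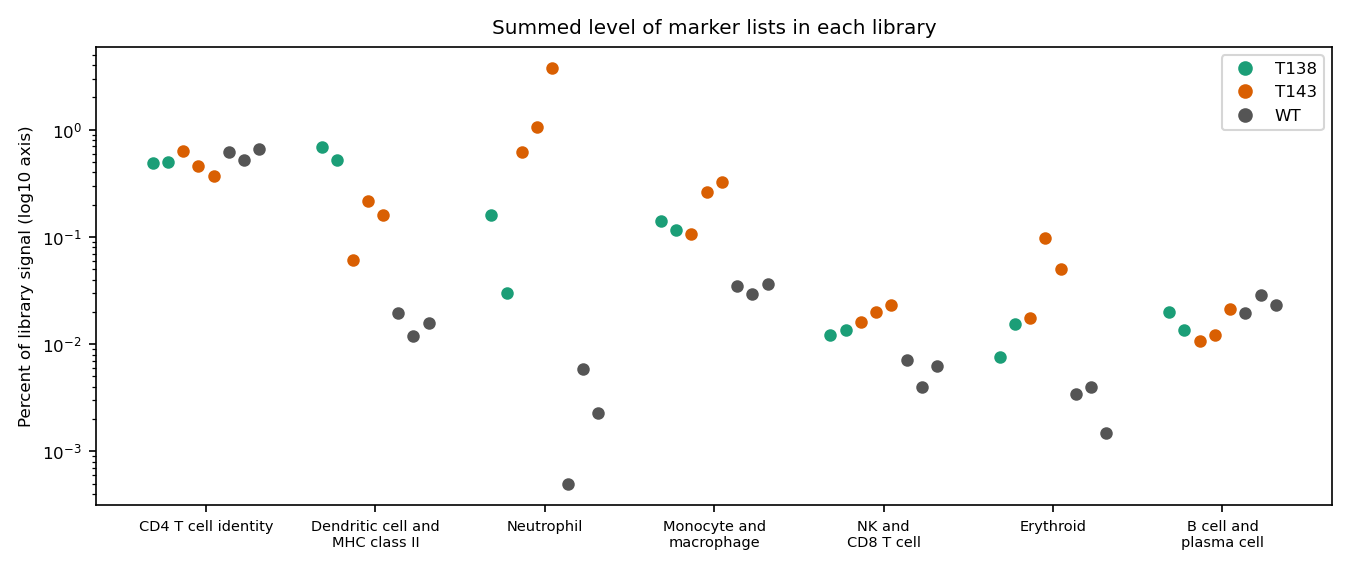
Summed signal of 7 marker lists as a percentage of all signal (y axis, log10 scale) in each library of T138, T143 and WT. The neutrophil, monocyte, dendritic cell, natural killer and erythroid sums lie higher in all 5 nuclear-transfer libraries than in all 3 WT libraries, and the CD4 T cell sums overlap.

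Among abundant shared higher genes outside the marker lists, the 10 with the largest change were Chil3, Ifitm6, Mcemp1, Csf3r, Chil1, Cd33, Wfdc21, Fn1, Olfm4 and Hp. Chil3, a chitinase-like protein of macrophages and neutrophils, was at 881.9 and 160.9 (T138) and 3934, 8356 and 28489 (T143), and at 0 in each WT library, at least 3328-fold higher against a floor of 3 reads per library averaged over the arm. Csf3r, the receptor for the granulocyte growth factor G-CSF, was at 6.89, 0 and 1.52 in WT, against 664.4 and 180.3 in T138 and 716.4, 2176 and 4550 in T143 (8.48 ± 1.0, limma adjusted p = 0.00206). Mcemp1, a membrane protein of mast cells and myeloid cells, was at 292.3 and 142.2 (T138) and 298.5, 632.5 and 2428 (T143), and at 0 in each WT library (at least 302-fold higher). T143 replicate 3 was highest for all 3 genes, as it was for the neutrophil sum. In limma-voom the neutrophil list had 0 of its 12 shared genes called, and Chil3 had an adjusted p of 0.412.

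Genes known from tissue and effector Treg cells were partly higher. Of 26 such genes 5 rose with all 5 values above WT (Lgals3, Fgl2, Gzmb, S100a6 and Lgals1), against a background of 3.04%, and 1 fell (Ccr8), with a median log2 change of 1.06. Each of the 5 is also known from myeloid or natural killer cells. Lgals3, a galectin abundant in macrophages, was at 1156 and 1426 (T138) and 764.2, 1615 and 4098 (T143), with WT at 60.61, 59.64 and 122.4 (4.31 ± 0.48, limma adjusted p = 0.00159). Fgl2, a secreted fibrinogen-like protein, was at 136.4, 127.8 and 267.5 in WT, against 4613 and 3279 in T138 and 662.7, 1425 and 1330 in T143 (3.42 ± 0.56, limma adjusted p = 0.00824). Gzmb, the protease granzyme B, was at 664.4 and 689.2 (T138) and 324.4, 323.2 and 2322 (T143), with WT at 87.47, 52.18 and 153.5 (2.84 ± 0.62, limma adjusted p = 0.0282). Fgl2 was highest in T138, whereas Lgals3 and Gzmb were highest in T143 replicate 3.

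Ccr8, a chemokine receptor of tissue Treg cells, was at 279.6, 332.3 and 503.1 in WT, against 83.66 and 43.18 in T138 and 23.88, 33.09 and 132.4 in T143 (-2.77 ± 0.56, limma adjusted p = 0.021). The count of 5 higher genes was 1 to 9 when a library was left out. Without any 1 WT library the adjusted p was 0.0615 to 0.147 for Gzmb, 0.0671 to 0.126 for S100a6, 0.0717 to 0.213 for Lgals1 and 0.0696 to 0.125 for Ccr8.

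Among 28 homing genes 2 rose, Ccr2 among them, and 2 fell, Ccr8 and Itgb8, against backgrounds of 3.04 and 1.82%. The median was -0.15, and Ccr2 is also in the monocyte and macrophage list. Ccr2, the chemokine receptor of inflammatory monocytes that T cells also use, was at 11586 and 10248 (T138) and 1548, 3318 and 5712 (T143), with WT at 533.8, 725.3 and 795 (2.92 ± 0.58, limma adjusted p = 0.0192). Itgb8, the integrin chain with which Treg cells activate TGF-beta, was at 79.72 and 95.68 (T138) and 47.76, 43.27 and 17.33 (T143), with WT at 326.5, 370.6 and 358 (-2.82 ± 0.53, limma adjusted p = 0.015). Itgb8 and Lrrc32 encode partners in the same activation step. Both were named because they met the rule, so their common direction is no evidence about that step. Itgav, another integrin gene of the list, was not called (-0.08 ± 0.29, limma adjusted p = 0.897). Without any 1 WT library the adjusted p was 0.0699 to 0.0882 for Ccr2 and 0.0678 to 0.0851 for Itgb8, and the list had 0 to 3 genes lower.

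Some immediate early genes were higher in both lines. Of 18 genes in that list 4 rose with all 5 values above WT (Fosl2, Ier3, Atf3 and Ier2) and none fell, against a background of 3.04%. The list holds no EGR or NR4A factor and no Myc. These were placed in the calcium and NFAT list, where Egr2 and Myc fell, so the direction depends on how the lists were split. The median log2 change of the immediate early list was 0.64. The median was 1.45 in T138 and 0.25 in T143. With each line set against WT, 12 members were called higher in T138, and 4 higher and 1 lower in T143. Fosl2 encodes a subunit of AP-1 (chromosome 5, 32136472 to 32157840) and was at 73.7, 121.4 and 112.5 in WT, against 673.2 and 766.2 in T138 and 429.9, 641.4 and 1297 in T143. Its change was 2.83 in T138 and 2.81 in T143 (pooled 2.82 ± 0.34, limma adjusted p = 0.00223). Ier3, a stress-induced survival gene, was at 976.4 and 695.1 (T138) and 79.6, 127.3 and 428.2 (T143), with WT at 8.27, 17.04 and 5.32 (4.94 ± 0.83, limma adjusted p = 0.00828). Atf3, a stress-induced transcription factor that pairs with AP-1 subunits, was at 0, 3.19 and 4.56 in WT, against 511.8 and 690.9 in T138 and 35.82, 61.09 and 74.26 in T143 (5.65 ± 1.1, limma adjusted p = 0.0171). Ier3 and Atf3 were highest in T138. Without WT replicate 2 or 3, 2 and 1 of the 18 were called and non-overlapping, and without any 1 WT library the adjusted p of Atf3 was 0.0544 to 0.08. These genes are also induced in myeloid cells, whose marker sums are given above.

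**Figure D4:**
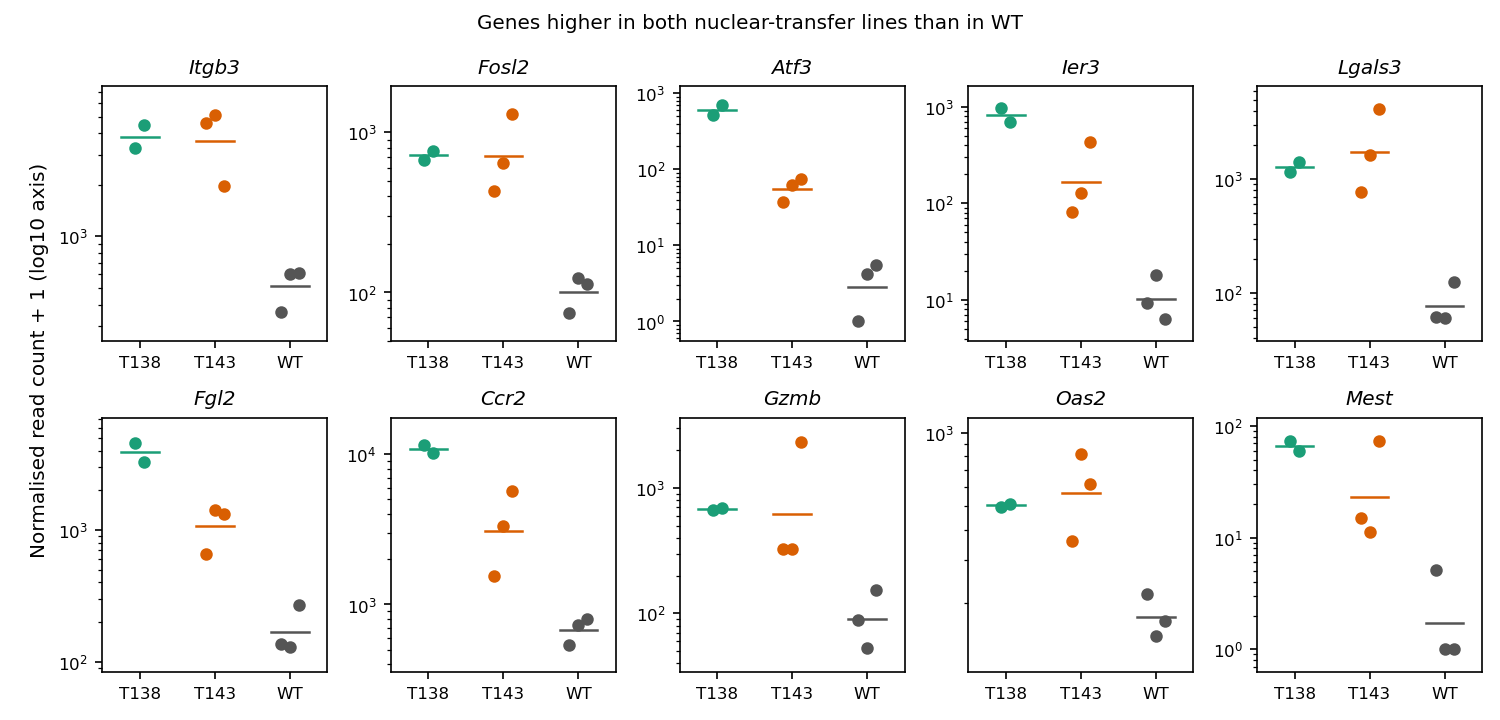
Normalised read count plus 1 (y axis, log10 scale) of 10 shared higher genes in each library of T138, T143 and WT, with a line at each group's mean on the log scale. All WT points lie below the points of both lines, and Ier3, Atf3, Fgl2 and Ccr2 lie higher in T138 than in T143.

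Because AP-1 subunits were among the shared genes, promoters were searched for AP-1 letters (TGANTCA, either strand) in the window from 250 bases before to 50 bases after the start site, in RefSeq sequence of GRCm38. A promoter was available for 11548 of 15547 tested genes, 352 of 472 shared higher and 216 of 283 shared lower genes. The letters were found in 6.62% of all promoters, 13.35% of those of shared higher genes and 7.87% of those of shared lower genes. For comparison, ETS letters (CCGGAAGT) were in 8.06, 2.56 and 5.09%, kappa B letters (GGGANTTTC) in 1.2, 2.84 and 1.39%, cyclic AMP response letters (TGACGTCA) in 3.39, 1.14 and 1.39%, EGR letters (GCGTGGGCG) in 1.35, 0.85 and 1.85%, E-box letters (CACGTG) in 11.18, 9.38 and 10.19%, and serum response letters (CCATATTAG) in 0.1, 0 and 0.46%. A match describes these letters and is not evidence of binding. Of 60 called genes named in the text that had a promoter, 6 held the AP-1 letters (Tnfrsf9, Fgl2, P2rx7, Mcemp1, Bcl2a1a and Ddc). Of these, 4 are printed to show where the letters lie in a pair of higher and a pair of lower genes, as the 250 bases before and the first 10 bases from the start site, plus strand, with the AP-1 letters in capitals. The windows are chr5:21372423-21372682 for Fgl2, chr8:3665512-3665771 for Mcemp1, chr4:150927749-150928008 for Tnfrsf9, at an alternative start, and chr5:122643677-122643936 for P2rx7.
Fgl2: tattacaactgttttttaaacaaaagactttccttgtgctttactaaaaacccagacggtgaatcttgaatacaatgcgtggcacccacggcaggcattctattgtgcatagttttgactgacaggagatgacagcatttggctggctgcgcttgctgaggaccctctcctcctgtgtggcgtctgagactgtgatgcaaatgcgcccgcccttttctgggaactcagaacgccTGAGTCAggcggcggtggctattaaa
Mcemp1: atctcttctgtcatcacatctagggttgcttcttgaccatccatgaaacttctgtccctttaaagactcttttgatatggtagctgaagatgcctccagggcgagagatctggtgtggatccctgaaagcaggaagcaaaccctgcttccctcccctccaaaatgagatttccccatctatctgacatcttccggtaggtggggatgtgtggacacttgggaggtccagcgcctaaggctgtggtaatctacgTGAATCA
Tnfrsf9: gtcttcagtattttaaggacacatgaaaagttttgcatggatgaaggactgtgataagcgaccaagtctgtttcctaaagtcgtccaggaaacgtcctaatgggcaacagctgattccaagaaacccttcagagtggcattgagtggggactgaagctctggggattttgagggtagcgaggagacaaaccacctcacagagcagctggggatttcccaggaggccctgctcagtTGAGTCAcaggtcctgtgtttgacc
P2rx7: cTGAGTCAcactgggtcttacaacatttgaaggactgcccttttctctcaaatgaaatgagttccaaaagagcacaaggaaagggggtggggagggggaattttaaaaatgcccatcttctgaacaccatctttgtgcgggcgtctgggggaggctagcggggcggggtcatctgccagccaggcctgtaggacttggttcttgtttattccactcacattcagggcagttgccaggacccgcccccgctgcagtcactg

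In the Fgl2 and Tnfrsf9 promoters the letters begin at positions 235 and 236, shortly before the start site. In Mcemp1 they begin at 254, within the transcript, and in P2rx7 at 2, at the far end of the window. Fgl2 and Mcemp1 were higher than WT in all 5 libraries and Tnfrsf9 and P2rx7 lower. They were picked as a pair from each side, so their directions are no evidence about the letters. Among all genes with a promoter, the letters were in 13.35% of shared higher, 7.87% of shared lower and 6.62% of all tested genes. Whether these shares differ was not tested.

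Of 131 shared higher genes that changed by at least 1 log2 unit in each line, the closest changes were those of Fosl2, Asah1, Dock5, Rp2, Pcyt1a, Ctsz, Kctd12, Cmpk1, Lgmn and Itgb3. Itgb3 encodes the integrin beta 3 chain (chromosome 11, 104608000 to 104670476), which is shared by platelets, myeloid cells and activated T cells. It was at 3280 and 4462 (T138) and 4603, 5090 and 1981 (T143), with WT at 363, 603.9 and 611.8 (2.85 ± 0.31, limma adjusted p = 0.00154). The lines overlapped each other. Of the 7 genes of the platelet list none was called higher and non-overlapping in the pooled comparison, but 4 were called higher in T143 against WT. Dock5, a guanine nucleotide exchange factor, was at 106.1, 109.7 and 104.1 in WT, against 627 and 735.8 in T138 and 330.4, 688.5 and 1548 in T143 (2.69 ± 0.4, limma adjusted p = 0.00511). Lgmn and Ctsz encode lysosomal proteases and Asah1 a lysosomal ceramidase, with changes of 2.03 ± 0.29, 1.3 and 1.45. Kctd12 changed by 3.53 ± 0.52 and Cmpk1, a nucleotide kinase, by 1.26 ± 0.19. Fosl2, Dock5, Kctd12, Cmpk1, Lgmn and Itgb3 were called under every alternative run, and Asah1 and Ctsz were not called without any 1 WT library.

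Of 32 interferon-stimulated genes 2 rose (Oas2 at 1.62 ± 0.28, limma adjusted p = 0.0108, and Oasl2 at 2.34 ± 0.52, limma adjusted p = 0.0306) and none fell, against a background of 3.04%, with a median of 0.28 and 0 to 3 called when a library was left out. In the BCL2 family 1 of 16 rose (background 3.04%, and 0 without any 1 WT library), Bcl2a1a (4.41 ± 0.88, limma adjusted p = 0.0195), which has near-identical copies and is uncertain. None of the 29 cell cycle, 20 cholesterol, 16 glycolysis, 20 MHC class I, 8 GIMAP or 20 resting T cell genes was called and non-overlapping, with medians between -0.21 and 0.49. The cell cycle median was -0.37 in T138 and 1.23 in T143, and that of the resting T cell genes -0.98 and 0.62.

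Imprinted genes, which are expressed from the allele of a given parent and are often followed in animals made by nuclear transfer, were examined because both lines went through that procedure. Of 33 tested, 2 rose (Mest and Sgk1) and 4 fell (Airn, Igf2r, Plagl1 and Ddc), against backgrounds of 3.04 and 1.82%, with a median of -0.44. Sgk1 is in the list, although its imprinting is not established. Airn, a long noncoding RNA that silences Igf2r in cis (chromosome 17, 12741311 to 12859884), was at 83.66 and 55.88 (T138) and 73.63, 110.7 and 68.07 (T143), with WT at 309.9, 485.6 and 337.4 (-2.26 ± 0.34, limma adjusted p = 0.00525). Igf2r (chromosome 17, 12682406 to 12769706) overlaps Airn on the opposite strand, and since strand counting is not stated their reads cannot be told apart where they overlap. Igf2r was at 7007, 6252 and 6476 in WT, against 1521 and 1518 in T138 and 4253, 3693 and 2886 in T143 (-1.37 ± 0.34, limma adjusted p = 0.049).

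Plagl1, a zinc finger factor, changed by -2.73 ± 0.54 (limma adjusted p = 0.0189). Mest was at 71.85 and 58.42 (T138) and 13.93, 10.18 and 73.02 (T143), with WT at 4.13, 0 and 0 (4.35 ± 1.01, limma adjusted p = 0.0361). Ddc was at 0 in T138 and at 0, 3.82 and 2.48 in T143, against 40.64, 51.12 and 28.88 in WT. Leaving out a library gave 1 to 4 imprinted genes lower and 0 to 2 higher. Airn alone of the 6 was called under every alternative run. Among 16 genes of DNA methylation and demethylation 1 fell (background 1.82%), the methyltransferase gene Dnmt3a (-0.78 ± 0.18, limma adjusted p = 0.0388, 0.0669 to 0.185 without any 1 WT library).

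**Figure D5:**
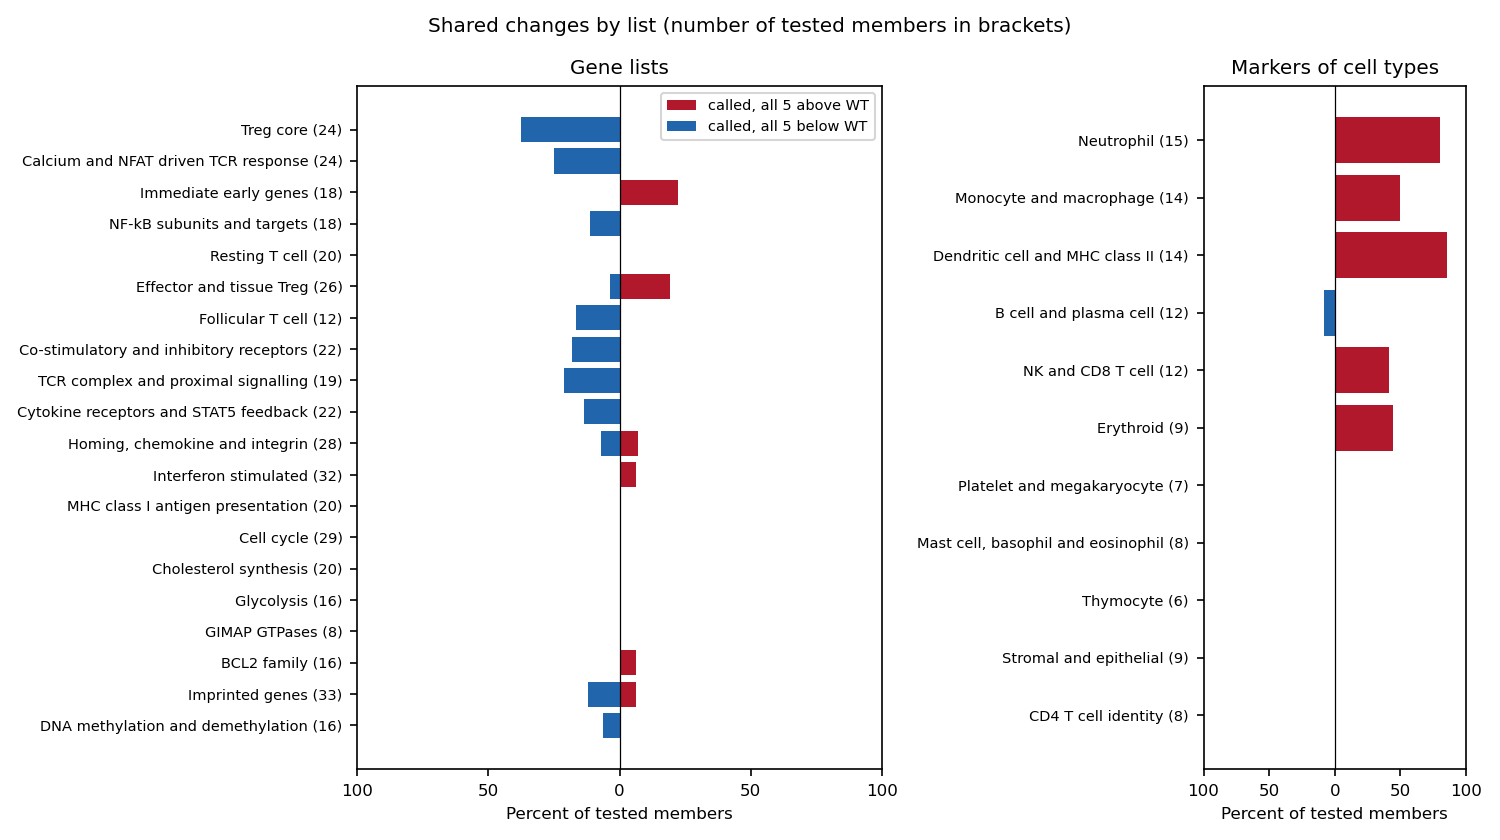
Percentage of the tested members of each gene list shown (x axis) that were called and had all 5 nuclear-transfer values above, or all 5 below, the 3 WT values, with biology lists and marker lists of other cell types. Treg core genes lead the lower side with 9 of 24, and the neutrophil (12 of 15) and dendritic cell (12 of 14) lists lead the higher side.

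Rag1, the recombinase gene that the strain label gives as knocked out, was at 0, 0 and 18.24 in WT, against 108.3 and 106.7 in T138 and 25.87, 40.72 and 32.18 in T143. All 5 values lay above WT, and the pooled change of 4.32 ± 1.1 was not called (limma adjusted p = 0.0524). Reads outside a deleted or replaced part would be counted, so these values do not check the genotype.

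Shared genes were spread over the genome. Positions were found for 15501 of the tested genes. By chromosome, leaving aside Y with 4 tested genes and none shared, shared higher genes made up between 1.46% of tested genes (chromosome 4) and 4.89% (chromosome 6), and shared lower genes between 1.23% (chromosome 13) and 3.02% (chromosome 17). Groups of at least 3 shared genes with starts within 500 kb included 6 of 9 tested genes at the Cd300 family (chromosome 11, 114889152 to 115135372), and, on chromosome 17, 5 of 5 at the Trem family and 5 of 15 at the MHC class II genes. At Ugt1a on chromosome 1, 8 of 9 were shared higher, but these transcripts share exons. Among lower genes, Tnf, Lta, Mir6974 and Vars2 lay together (4 of 20 tested genes, chromosome 17, 35199367 to 35667639), as did Lag3 and Cd27 in a group of 3 of 22 on chromosome 6.

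The lines differed from each other in the size of some shared changes. In the direct test of T143 against T138, 3272 of 15547 genes (21%) were called. Of the 472 shared higher genes 73 (15.5%) were called different between lines, 47 of them higher in T143 and 26 higher in T138. Of the 283 shared lower genes it was 42 (14.8%), 11 higher in T143 and 31 lower. A gene whose lines differ has a wider spread in the pooled arm and is harder to call there, so these percentages are not comparable with 21%. Leaving out a library moved the total of 115 to 52 (T138 replicate 1), 42 (T138 replicate 2) or 69 (T143 replicate 2). The median changes of the shared higher genes were 4.16 in T138 and 4.11 in T143, and those of the shared lower genes -1.36 and -1.46, both set by the rule that chose the genes and by the WT libraries that they share.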

How the data were processed

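Messenger RNA of sorted Treg cells was measured in 2 T138, 3 T143 and 3 WT libraries, prepared with a stranded kit per the labels' protocols. The deposited values are a signal: per the deposited table, read counts per gene divided by a factor per library, so that every library has the same total, and division by that library's smallest step gave whole numbers of reads (100% of values, tolerance 0.01 units). Per the submitters' processing notes, the tools include STAR 2.5.2b, HOMER 4.8, CASAVA 1.8.2 and edgeR, with the build mm10, without role or order. The treatment of strand and of multi-mapped reads in counting was not given in the sources used. Group and replicate came from the titles.

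Tests were two-sided in limma 3.58.1 (R 4.3.3) on log2(value + 1), with a mean-variance trend and robust moderation, on 5 nuclear-transfer against 3 WT libraries. Genes that reached a value of 1 in 2 or more libraries were tested (15547 of 24453). Changes on this scale understate those of low genes. The change of each line, and T143 against T138, came from a fit of 3 group means. P-values were adjusted by Benjamini-Hochberg over all tested genes. On simulated counts for 15547 genes the pooled test found 65% of the genes changed 2-fold and 96% of those changed 4-fold, and 7.5% of its calls were false. The simulation gave both lines the same change and the spread within groups, and changed only genes above the median level. In the real data 21% of genes were called different between the lines, so these rates need not hold for them.

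The members and the 21 biology and 11 marker lists were chosen with earlier results of these data known. Named genes were fixed genes, the 10 higher and 10 lower shared genes with the largest change above the median level (310.4) outside marker lists, the 10 and 10 with the closest changes in both lines, and, per list, the members with the smallest p (4 at most). Some genes that met the rule are left out. Other names were chosen after their values were seen, except where they illustrate a list. Alternatives were edgeR 4.0.16 and DESeq2 1.42.0 on the recovered reads, limma-voom, other pseudocounts, filters and scalings, a replicate block, equal weight for both lines, and libraries left out in turn. Replicate numbers did not pair samples: over 7 same-numbered pairs, correlations of deviations ran from -0.062 to 0.055. Values after ± are limma standard errors from the spread among libraries, and floors cover counting error only. Positions and promoters are from RefSeq on GRCm38.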

Additional observations from a re-analysis of the deposited data

Results flagged for a closer look

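In the 5 nuclear-transfer libraries Lrig1 was lowest in T138 replicate 2, at a value of 122.8. On the log2(value + 1) scale the gap to its nearest neighbour took 0.773 of the range. The critical value is 0.71, which chance passes in about 1 of 20 groups. All named genes were screened for such gaps, so some would pass by chance.

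For 26 named genes the change from WT differed between the lines (limma, T143 minus T138 on the log2 scale, adjusted p from 2.69e-05 to 0.0475). Among fixed Treg genes the difference was -2.79 for Foxp3, -2.72 for Il2ra, -3.39 for Ctla4, -2.33 for Ikzf2, 4.09 for Nr4a3 and 0.91 for Egr2. Among genes lower than WT in both lines it was 1.62 for Gpr83, -2.01 for Ikzf4, -2.67 for Npas4, -2.24 for Capn3, -3.54 for Rgs9, 2.51 for Ryr2, -0.91 for Cd83 and -1.06 for Cd200. Among genes higher than WT in both lines, T143 exceeded T138 by 4.69 for Chil3, 3.96 for Chil1, 5.05 for Wfdc21, 4.3 for Fn1, 3.63 for Olfm4, 4.6 for Hp and 1.57 for Oasl2. T138 exceeded T143 for Ier3 (-2.33), Atf3 (-3.42), Ier2 (-0.77), Fgl2 (-1.85) and Ccr2 (-1.82).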

How the results depend on the processing

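In the pooled comparison limma called 476 genes higher and 283 lower, of which 472 and 283 were shared. edgeR called 292 and 175, all shared, and DESeq2 1202 and 503, of which 872 and 486 were shared. limma-voom called 151 higher and 197 lower, of which 151 and 196 were shared. Equal weight for both lines gave 1141 and 1154, of which 805 and 807 were shared. That setting used the fit of 3 group means, whose spread leaves out the difference between the lines. The pooled fit keeps that difference in its spread. Without T138 replicate 1 and T143 replicate 3 there were 214 and 136, all shared. Without T143 replicate 1 and WT replicate 1 there were 89 lower genes, all shared. Leaving out 1 library gave 193 to 588 called higher and 74 to 390 lower, with 193 to 587 shared above and 74 to 389 shared below. The 115 shared genes that differed between lines became 42 to 134 when 1 library was left out and 46 without T138 replicate 1 and T143 replicate 3. Some of these settings had fewer libraries, and the equal-weight fit had a different spread. Otherwise the cause of these moves was not tested.

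With the replicate number as a block, 344 genes were called higher and 149 lower, of which 340 and 148 were shared. The numbers do not pair these samples.

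For the 83 named genes, 21 alternatives gave 1742 values: 1461 kept direction and call, 272 kept direction and lost the call, 9 gained it and 0 changed direction. Of 75 named genes called, 29 were called under every alternative that tested them. Median centring moved the median change of all genes from -0.013 to -0.108, and quantile normalization to -0.082. Depth limits genes near 3 reads, a value of 2.07 to 5.97.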

Other observations

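The values of 3 more genes that stood apart from WT in all 5 libraries are given here, and they were chosen after their values were seen. Ift80, an intraflagellar transport gene, was at 2192 and 2830 (T138) and 4100, 3542 and 2162 (T143), with WT at 11470, 12670 and 10140 (log2 change -1.99 ± 0.23, limma adjusted p = 0.00201). Ncr1, the natural killer cell receptor NKp46, was at 0, 1.06 and 0 in WT, against 149.6 and 164.3 in T138 and 75.62, 280 and 141.1 in T143 (6.88 ± 0.67, limma adjusted p = 0.00119). Jchain, a plasma cell gene, was at most 5.91 in the nuclear-transfer libraries and at 123.3, 1987 and 954.5 in WT.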
